A study of Rattus norvegicus with 6 samples.

Results

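The 4 genes described here encode a growth factor, its receptor, the insulin receptor and an adaptor that both receptors use: Igf1 (ENSRNOG00000004517), Igf1r (ENSRNOG00000014187), Insr (ENSRNOG00000029986) and Irs1 (ENSRNOG00000014597). They were taken by Ensembl ID from a table of 32545 rat gene rows, and all 4 were present and passed the filter on low counts, which kept 13431 genes. The symbols were given with the IDs when the genes were chosen. The rat gene table used here pairs no Ensembl ID with a symbol, so the pairs were neither checked nor contradicted by an annotation, and the names below rest on them.

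The table holds reads from polyadenylated RNA of femur tissue of Wistar rats, an outbred laboratory strain, in 3 control libraries and 3 libraries of chronic sleep deprivation (CSD). The series title joins sleep deprivation to impaired bone formation and to PI3K/AKT signalling, the kinase pathway that these 4 genes feed. The labelled ages are 12, 13 and 14 weeks for controls 1, 2 and 3 and 15, 16 and 17 weeks for CSD 1, 2 and 3, while the text on the series as a whole says 12 weeks. Every CSD library is thus labelled older than every control, and group and labelled age cannot be told apart unless the shape of an age trend is assumed. The labels do not give the method of sleep deprivation, the sex, whether marrow was removed, or the number of animals. A p-value here therefore reflects the spread among the libraries of a group, and that spread may be technical.

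Insulin-like growth factor 1 (IGF-1) is a secreted hormone. The liver releases much of it into the blood under growth hormone, and bone cells also make it locally, where it acts on osteoblasts and growth-plate chondrocytes. It binds the IGF-1 receptor, a tyrosine kinase closely related to the insulin receptor. Both receptors phosphorylate insulin receptor substrate 1 (IRS-1), which recruits PI3-kinase and so activates AKT. Phosphorylation, the step that carries the signal, is not measured by RNA reads.

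Gene reads per library ran from 8366443 to 9572898, and the 4 genes had 81 to 532 reads per library. Levels are given in CPM, gene reads scaled to a common library total with TMM factors. In bulk tissue, fewer cells of a type and less RNA per cell cannot be told apart. Bone, marrow, fat and muscle markers could not be looked up because the IDs were not matched to symbols, so the tissue label was not checked and the part of cell makeup in any value below was not tested.

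Igf1, the ligand, had the widest difference between the groups among the 4 genes. Its level was 34.2, 56.4 and 48.5 CPM in controls 1, 2 and 3, and 27.7, 19.5 and 15.2 CPM in CSD 1, 2 and 3. All 3 CSD libraries lay below all 3 controls, with CSD 3 lowest and control 2 highest. The means were 46.4 ± 11.2 CPM over the controls and 20.8 ± 6.37 CPM over the CSD libraries (SD, n = 3). The fitted log2 fold change, CSD minus control, was -1.16 (SE 0.255, 95% interval -1.74 to -0.57), which puts the CSD level at 44.9% of the control level, with an interval of 30.0% to 67.2%. After adjustment over all tested genes it did not pass the threshold of 0.05 in edgeR (quasi-likelihood test, adjusted p = 0.176, from 0.00170 before adjustment). The exact two-sided permutation test of the 6 levels gave p = 0.1, the smallest it can give with 3 libraries against 3.

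**Figure D1:**
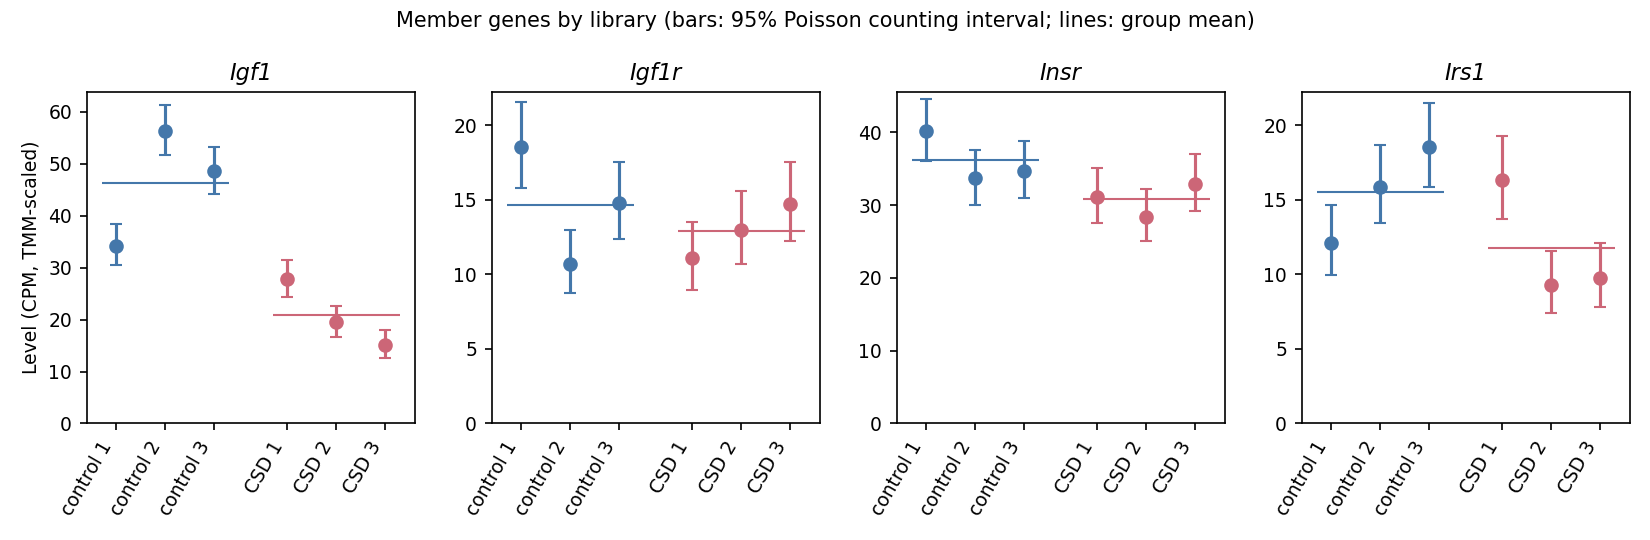
Level in CPM of each gene (vertical axis, a separate scale starting at 0 for each panel) in the 3 control and 3 CSD libraries. Points are libraries, bars are 95% Poisson intervals of the read count and lines are group means; for Igf1 the CSD libraries sit between 15.2 and 27.7 and the controls between 34.2 and 56.4.

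The Igf1 groups came closest at control 1 and CSD 1. Control 1 stood 1.23-fold above CSD 1, and their 95% Poisson intervals, which cover counting error only, overlapped (30.5 to 38.3 CPM from 305 reads and 24.3 to 31.5 CPM from 238 reads). Within groups the highest Igf1 library was 1.65 times the lowest among controls and 1.83 times the lowest in CSD. The spread within groups on the log2 scale (SD 0.404) was 4.32 times what the counting of reads alone would give.

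The call for Igf1 depended on the test and on 1 library. DESeq2 gave an adjusted p of 0.00255 (from 1.47e-05 before adjustment) at a log2 fold change of -1.15. By contrast, limma-voom gave an adjusted p of 0.264 (from 0.00157 before adjustment) at -1.17. Before adjustment limma-voom was thus no weaker than the main edgeR fit, at 0.00170. Adjusted values depend also on the other genes tested in each fit. When CSD 1 was left out, edgeR gave 0.0433 with a log2 fold change of -1.43. That fit called 1.68% of its tested genes. Leaving out control 1 gave 0.0529, and leaving out any other single library gave 0.299 to 0.550. Before adjustment, the edgeR values with 1 library left out ran from 0.000577 (without CSD 1) to 0.00811 (without control 2). With labelled age as a linear covariate the log2 fold change was -0.89 (SE 0.514, against 0.255 in the main fit; edgeR adjusted p = 0.862). Every CSD library is labelled older than every control, so this fit separates group from age only by assuming a linear trend. The labelled ages rise by 1 week from each library to the next in the order of the labels, so this covariate equals the order of the libraries, and whether the ages are those of the animals could not be settled from the files.

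Igf1 stood near the edge of all genes by size of difference. Of the 13431 tested genes, 158 had a log2 fold change as low as that of Igf1 or lower, and by p Igf1 was the gene at rank 128. The background was broad: edgeR called 0% of tested genes at an adjusted p under 0.05, 6.39% were lower and 6.11% higher in CSD at an unadjusted p under 0.05, and the CSD libraries lay below all controls in 8.05% and above them in 8.77%. DESeq2 called 1.96% of the genes to which it gave an adjusted p, 0.589% in the lower direction. Igf1 belonged to each of these sets in the lower direction, other than the empty first.

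Igf1r, the receptor with high affinity for IGF-1, showed no separation of the groups. It had 18.5, 10.7 and 14.8 CPM in controls 1, 2 and 3, and 11.1, 13.0 and 14.7 CPM in CSD 1, 2 and 3. The lowest and the highest libraries were both controls, and the CSD libraries all lay between them. Means were 14.7 ± 3.91 CPM over the controls and 12.9 ± 1.83 CPM over the CSD libraries (SD, n = 3). The log2 fold change was -0.18 (SE 0.236, 95% interval -0.72 to 0.36; edgeR adjusted p = 0.768; exact permutation test, p = 0.6). This interval reaches from 60.6% to 128% of the control level, so a moderate difference in either direction was not excluded. Control 1 set the sign: without it the log2 fold change was 0.02.

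Insr, the insulin receptor, was the steadiest of the 4 genes within groups. It had 40.2, 33.7 and 34.7 CPM in controls 1, 2 and 3, and 31.1, 28.4 and 33.0 CPM in CSD 1, 2 and 3. The CSD libraries all lay below the controls, but the lowest control exceeded the highest CSD library by a factor of only 1.02. Means were 36.2 ± 3.49 CPM over the controls and 30.8 ± 2.27 CPM over the CSD libraries (SD, n = 3), and the log2 fold change was -0.23 (SE 0.132, 95% interval -0.53 to 0.07). The difference did not pass the threshold (edgeR adjusted p = 0.488; exact permutation test, p = 0.1, again the lowest value open to it). The spread within groups was 1.46 times counting error, the lowest ratio of the 4 genes, and the interval of 69.1% to 105% of the control level was the narrowest. With library totals in place of TMM factors the log2 fold change was -0.36, and the median of all tested genes moved to -0.13 under the same scaling.

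Irs1, the adaptor that both receptors phosphorylate, overlapped between the groups through CSD 1. It had 12.1, 15.9 and 18.5 CPM in controls 1, 2 and 3, and 16.3, 9.29 and 9.77 CPM in CSD 1, 2 and 3. CSD 2 and CSD 3 lay below all 3 controls, whereas CSD 1 lay above 2 of them. Means were 15.5 ± 3.21 CPM over the controls and 11.8 ± 3.92 CPM over the CSD libraries (SD, n = 3). The log2 fold change was -0.40 (SE 0.269, 95% interval -1.01 to 0.22; edgeR adjusted p = 0.556; exact permutation test, p = 0.3). Single libraries moved it both ways: it was -0.71 without CSD 1 (edgeR adjusted p = 0.178) and -0.25 without control 3 (edgeR adjusted p = 0.805), with -0.26 without CSD 2 and -0.28 without CSD 3.

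**Figure D2:**
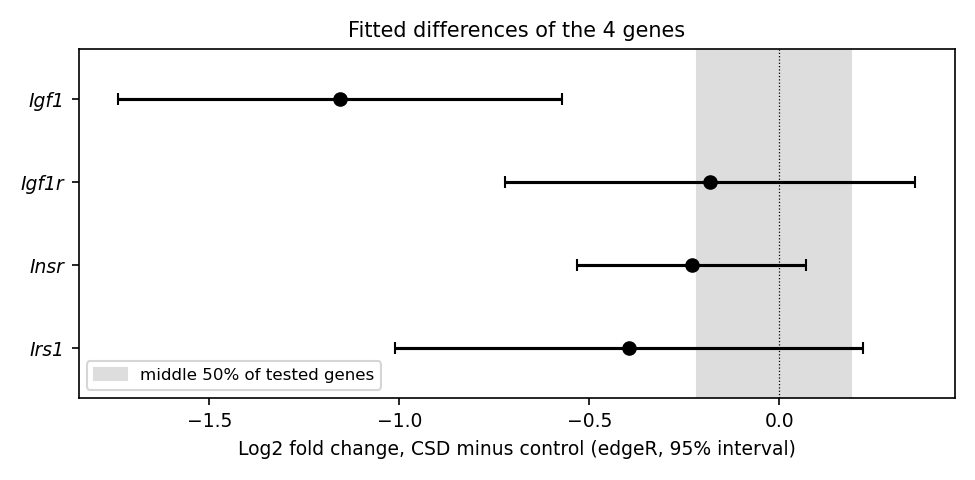
Fitted log2 fold change of each gene, CSD minus control (horizontal axis), with its 95% interval from edgeR; the grey band runs between the lower and upper quartiles of all tested genes, from -0.22 to 0.19. The interval of Igf1, -1.74 to -0.57, lies wholly outside the band, and those of Igf1r, Insr and Irs1 include 0.

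The 4 genes side by side all had a log2 fold change below 0, with a median of -0.31, against a median of 0.00 over all tested genes, of which 49.7% lay below 0. The CSD libraries lay below the controls without overlap for 2 of the 4 genes, Igf1 and Insr, and this held with TMM, DESeq2 and upper-quartile factors and with library totals alone. The share of all tested genes with that pattern was 8.05% with TMM factors and 15.7% with library totals alone. None of the 4 passed the adjusted threshold in the edgeR fit, and 1, Igf1, had an unadjusted p under 0.05, as did 12.5% of tested genes in either direction. The genes were chosen with earlier results of these data known, so these counts are a description.

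Ratios of reads between 2 genes of one library do not depend on how libraries are scaled. Levels of different genes were not compared with each other, since reads also follow transcript length, which the table does not give; a ratio can be compared only between libraries. Igf1 over Irs1 was 2.82, 3.55 and 2.62 in controls 1, 2 and 3, and 1.70, 2.10 and 1.55 in CSD 1, 2 and 3. The groups did not overlap for this ratio, 1 of the 6 between the genes, which is read here as a description: single genes did not overlap in either direction in 16.8% of those tested, and ratios of other gene pairs were not computed. The means were 3.00 ± 0.486 over the controls and 1.78 ± 0.282 over the CSD libraries (SD, n = 3). Its spread within groups on the log2 scale was 0.227 in controls and 0.222 in CSD, against an SD of 0.404 for the Igf1 level alone and 0.386 for the Irs1 level. For both Igf1 and Irs1, control 1 was the lowest control and CSD 1 the highest CSD library.

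Ligand over receptor gave a less clear picture. Igf1 over Igf1r was 1.85, 5.27 and 3.28 in controls 1, 2 and 3, and 2.51, 1.50 and 1.03 in CSD 1, 2 and 3. CSD 1 exceeded control 1, so the groups overlapped, and the means were 3.47 ± 1.72 over the controls and 1.68 ± 0.752 over the CSD libraries (SD, n = 3). Igf1 over Insr overlapped at the same pair of libraries, at 0.852 in control 1 and 0.891 in CSD 1, with means of 1.31 ± 0.418 over the controls and 0.679 ± 0.215 over the CSD libraries (SD, n = 3). The ratio between the receptors, Igf1r over Insr, was 0.401 ± 0.0747 over the controls and 0.419 ± 0.0552 over the CSD libraries (SD, n = 3). It ran from 0.318 in control 2 to 0.461 in control 1, and all CSD libraries lay inside that range.

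**Figure D3:**
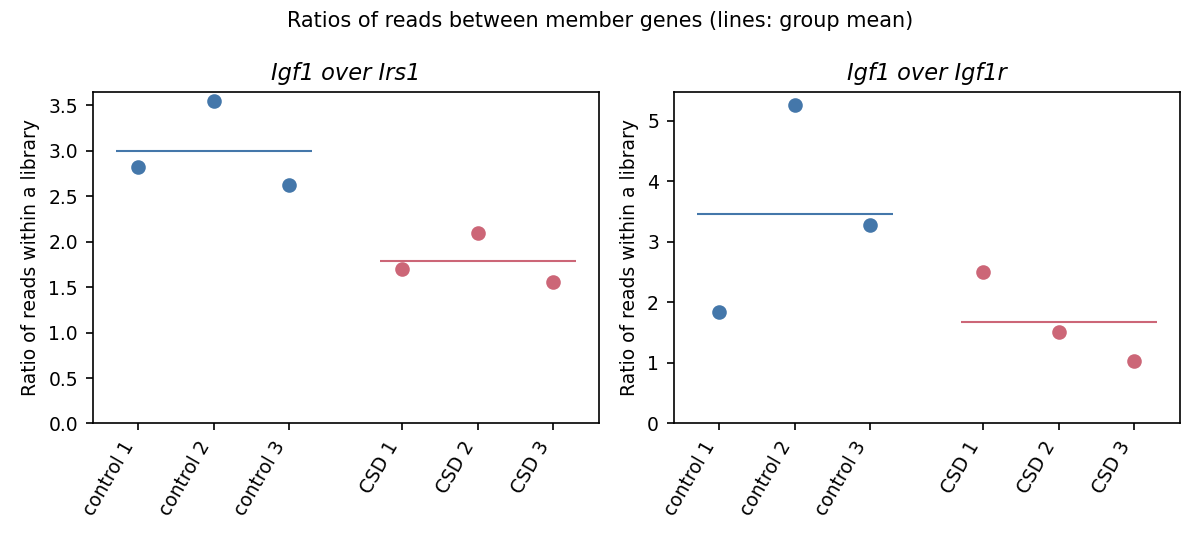
Ratio of reads within each library for Igf1 over Irs1 (left) and Igf1 over Igf1r (right), on vertical axes that start at 0; points are libraries and lines are group means. For Igf1 over Irs1 the controls lie between 2.62 and 3.55 and the CSD libraries between 1.55 and 2.10, whereas for Igf1 over Igf1r control 1 at 1.85 lies below CSD 1 at 2.51.

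Igf1r and Irs1 ran opposite to each other at the libraries numbered 1. Control 1 had the highest Igf1r and the lowest Irs1 of the controls, and CSD 1 the lowest Igf1r and the highest Irs1 of the CSD libraries. Igf1r over Irs1 was accordingly 1.53 in control 1 and 0.679 in CSD 1, while controls 2 and 3 had 0.673 and 0.799 and CSD 2 and CSD 3 had 1.40 and 1.51. On this ratio control 1 sat with CSD 2 and CSD 3, and CSD 1 sat with controls 2 and 3.

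More genes varied across the 6 libraries in the way Igf1 did than in the way of Irs1, Insr or Igf1r. Over log2 CPM, 124 of the other tested genes (0.923%) had a Pearson correlation with Igf1 of at least 0.95. The counts were 59 (0.439%) for Irs1, 24 (0.179%) for Insr and 13 (0.0968%) for Igf1r. The share that unrelated genes would reach over 6 libraries was not computed, so no count is read as an excess. The gene most like Igf1 was ENSRNOG00000028651 (r = 0.995, n = 6 libraries), with 4.83 ± 0.705 CPM over the controls and 3.02 ± 0.688 CPM over the CSD libraries (SD, n = 3). The gene most like Igf1r was ENSRNOG00000010653 (r = 0.995, n = 6 libraries), with 90.0 ± 8.07 CPM over the controls and 87.2 ± 3.34 CPM over the CSD libraries (SD, n = 3). These correlations are descriptions: the points share libraries and depth, the best of so many genes over 6 points is high by selection, and the files do not name these IDs.

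The genes also differ in the sequence before their start sites, which the choice of genes did not use. RefSeq windows for the GRCr8 assembly were matched by symbol for all 4 genes; the submitters' notes name the rn6 build, so these positions are not those of the counting. The 250 bases before the listed start are shown for Igf1 (chr7:24172282-24172531, plus strand) and Irs1 (chr9:91053960-91054209, minus strand), the ligand and the adaptor, as examples poor and rich in CpG, the CG dinucleotide. Both run 5′ to 3′ on the gene's strand, with each CpG in capitals.
Igf1: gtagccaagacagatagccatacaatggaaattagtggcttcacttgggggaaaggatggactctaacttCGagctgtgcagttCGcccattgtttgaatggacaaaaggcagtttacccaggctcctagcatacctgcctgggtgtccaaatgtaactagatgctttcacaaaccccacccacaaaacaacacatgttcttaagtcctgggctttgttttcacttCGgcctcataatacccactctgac
Irs1: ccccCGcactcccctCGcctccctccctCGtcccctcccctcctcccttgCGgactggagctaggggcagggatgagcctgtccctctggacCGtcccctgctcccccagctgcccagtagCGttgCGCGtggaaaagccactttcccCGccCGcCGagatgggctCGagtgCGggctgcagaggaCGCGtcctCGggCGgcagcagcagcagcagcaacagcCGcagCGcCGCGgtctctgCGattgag

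The Igf1 window holds 3 CpG and 46.8% G and C, below the medians of 5 CpG and 51.2% over 33469 rat windows of this length. The Irs1 window holds 22 CpG and 70.8% G and C, Insr 24 CpG and 71.2%, and Igf1r 45 CpG and 79.6%. Irs1, Insr and Igf1r thus had more CpG than the upper quartile of all windows, which is 15. Igf1 is known to start from more than 1 promoter. Its listed start lies 2924 bases inside the span of the gene, so the window stands for only some of its transcripts. The listed starts of Insr and Igf1r also lie inside the spans of their genes, by 472 and 210 bases, and that of Irs1 by 0. The forkhead motif GTAAACA, as bound by FOXO factors that AKT restrains, was searched on both strands and occurred once, in the Insr window; 3.21% of all windows hold it. TTCNNNGAA, the palindromic motif of STAT factors that act below the growth hormone receptor, occurred in none of the 4 windows and in 7.67% of all windows. A gene count cannot show whether any of these letters was used in femur.

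Across settings the order of the 4 genes by size of difference was led by Igf1 throughout. Its log2 fold change ran from -1.43 to -0.89 over 17 alternatives, and it passed the adjusted threshold in 3 of them. Irs1 ran from -0.71 to -0.25, Insr from -0.36 to -0.13 and Igf1r from -0.37 to 0.02, and none of these genes passed in any of the 17.

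**Figure D4:**
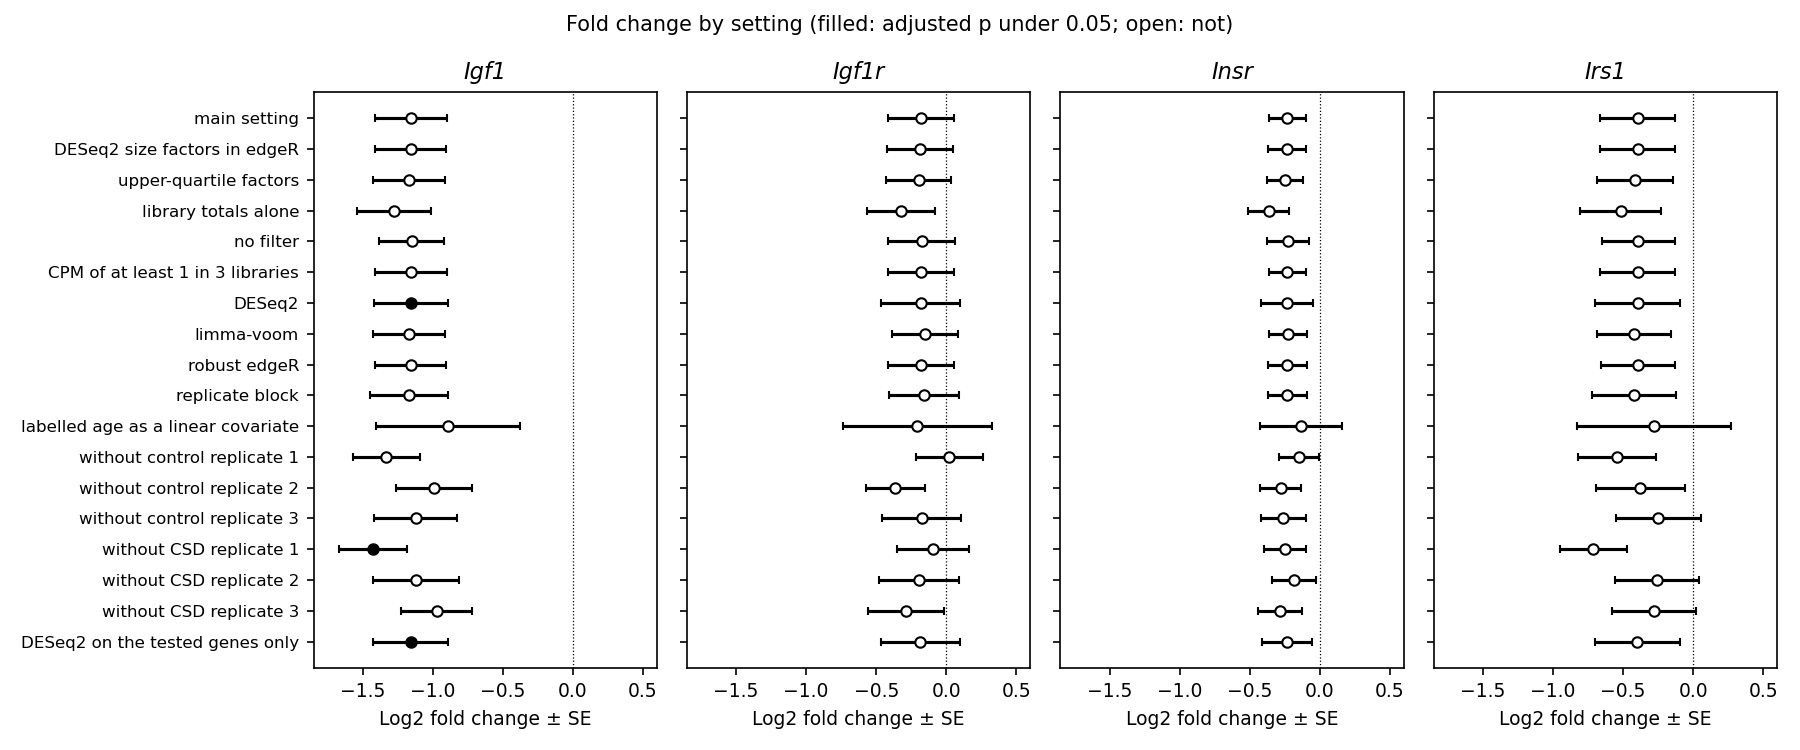
Log2 fold change, CSD minus control, with its standard error (horizontal axis) for each gene under the main setting and 17 alternatives (rows); filled points have an adjusted p under 0.05 and open points do not. The filled points are all in the Igf1 panel: DESeq2 on all genes, DESeq2 on the tested genes only, and edgeR without CSD 1.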

How the data were processed

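For 6 femur libraries the authors deposited raw counts of reads in 1 table, with a row per gene. The rn6 build, HISAT2 2.2.1 and HTSeq 0.12.4 are named in the submitters' processing notes. Neither annotation release nor strand setting is given in the sources used here. Whether reads of overlapping or antisense genes were told apart is therefore not known. The 5 closing rows that name no gene stayed out of library sizes and tests; the largest, for reads outside any feature, held 45.5% to 47.1% of a library. Genes were kept with filterByExpr at its defaults, and libraries were scaled with TMM factors. These ran from 1.02 to 1.07 in controls and from 0.912 to 1.00 in CSD, without overlap between the groups. CSD was compared with control by edgeR 4.0.16's quasi-likelihood test (two-sided, no covariate, R 4.3.3), with Benjamini-Hochberg adjustment over all 13431 tested genes at 0.05. Fold changes use a prior count of 0.125 and correlations log2 CPM with a prior count of 2. SE is the absolute log2 fold change over the square root of F. DESeq2 1.42.0 and limma 3.58.1 served as alternatives. Simulated data with known changes were used to check the edgeR script.

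The 4 genes and all lists were chosen with earlier results of these data known. The 7 signalling lists and 11 cell type lists were not analysed, since 0 of the IDs matched the gene table. The genes named are the 4 members and, by ID, the nearest gene in pattern to 2 of them.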

Additional observations from a re-analysis of the deposited data

How the results depend on the processing

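Igf1 kept its direction under all 17 alternatives, as did Insr and Irs1. Igf1 passed the threshold with DESeq2 (-1.15, adjusted p = 0.00255) and with DESeq2 on the tested genes only (-1.16, adjusted p = 0.00258), an alternative chosen after the data were seen; the cause was not tested. With 1 library left out its log2 fold change ran from -1.43 (without CSD 1, past the threshold) to -0.97 (without CSD 3), and its edgeR adjusted p from 0.0433 to 0.550. Over all alternatives its adjusted p ran from 0.00255 to 0.862, and the values before adjustment from 1.47e-05 (DESeq2) to 0.123 (labelled age as a covariate). Without a filter its edgeR adjusted p was 0.0552. With 1 library left out, Igf1r ran from -0.37 (without control 2) to 0.0217 (without control 1, reversed), Insr from -0.28 to -0.15 and Irs1 from -0.71 to -0.25.

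Over all genes the edgeR count of 0 called (1679 at an unadjusted p under 0.05) became 112 without a filter (104 higher, 8 lower), 297 with DESeq2 (208 higher, 89 lower), 278 with DESeq2 on the tested genes only (189 higher, 89 lower) and 121 with labelled age as a linear covariate (120 higher, 1 lower). Leaving out 1 library gave 0 to 230 called, 0 to 79 higher and 0 to 194 lower. The causes were not tested.

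With the number in the titles as a replicate block the count was 104 (103 higher, 1 lower), and the log2 fold changes were -1.17 for Igf1, -0.16 for Igf1r, -0.23 for Insr and -0.42 for Irs1, none past the threshold. The deviations of a control and a CSD library with one number had correlations of -0.01, -0.06 and 0.17. Of the 6 libraries, 2 correlated best with their own number. Deviations centred within groups of 3 offset one another, so these values cannot decide whether libraries with one number share an origin. The labels give no pairing beyond the number. The signalling lists were not run, as no ID was matched to a symbol. Each gene had 81 reads or more per library. The estimated spread within groups was from 1.46 (Insr) to 4.32 (Igf1) times counting error, and whether it exceeded counting error was not tested.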
